A study of Homo sapiens with 12 samples.

Results

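The Polycomb repressive complexes are the subject here, followed through 9 genes across the differentiation of human embryonic stem cells to blood progenitors: EZH1, EZH2, SUZ12, EED, JARID2, BMI1, CBX2, CBX7 and CBX8. They were taken by symbol from a table of 56593 gene symbols, of which 14840 reached 1 FPKM (fragments per kilobase of transcript, scaled to the size of the library) in at least 3 of the 12 libraries and were tested, all 9 of these genes among them. The cells came from a single line, H1, an established human embryonic stem cell line, and no genetic change separated the groups. The 4 populations, with 3 RNA-seq libraries each, were undifferentiated H1 cells, cells expressing APLNR (a mesoderm receptor) at day 2, cells expressing both CD31 and CD34 (surface markers of hemogenic endothelium) at day 5, and cells expressing CD43 (an early blood marker) at day 8. All differentiating cells received activin A and BMP4 for the first 2 days, and VEGF with bFGF after that. How the marked cells were separated is not given in the sources used here. The methods of the study speak of independent experiments for every analysis in general terms, but nothing ties each library to a culture of its own, so the p-values measure only the spread between these libraries, which may be technical.

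Polycomb proteins keep developmental genes silent by marking the chromatin around them. Polycomb repressive complex 2 (PRC2) places methyl groups on lysine 27 of histone H3, using the enzyme EZH2 or its relative EZH1 held by the scaffold proteins SUZ12 and EED, while accessory proteins such as JARID2 help to direct it to its targets. Canonical Polycomb repressive complex 1 (PRC1) reads that mark through a chromobox protein such as CBX2, CBX6, CBX7 or CBX8, holds a PCGF protein such as BMI1 and a PHC protein, and ubiquitinates histone H2A. In embryonic stem cells these complexes lie on the promoters of lineage regulators, and in blood cells BMI1 is known for its part in the self-renewal of stem and progenitor cells.

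The markers of the 4 populations largely followed their labels. The marker lists include the antigens that define the later populations (APLNR, PECAM1 for CD31, CD34, and SPN for CD43). Their agreement follows from that definition, and APLNR alone was at 359 to 402 FPKM in APLNR+ libraries. The summed level of 6 pluripotency markers was 1916 to 2000 FPKM in H1 and 151 to 177 FPKM in CD43+ libraries, and that of 6 mesoderm markers was 543 to 591 FPKM in APLNR+ and 2.55 to 2.66 FPKM in H1 libraries. The mesoderm sum was still 392 to 441 FPKM in CD31+CD34+ libraries, but APLNR alone was at 381 to 429 FPKM there. The other 5 mesoderm markers were each at 4.59 FPKM or less there and lower than in APLNR+ cells. The summed level of 6 endothelial markers was 470 to 649 FPKM in CD31+CD34+, 265 to 356 FPKM in CD43+ and 27.4 to 33.5 FPKM in H1 libraries. The 6 blood markers summed to 1164 to 1302 FPKM in CD43+ and 12.6 to 19.8 FPKM in CD31+CD34+ libraries, although PTPRC (CD45, the pan-leukocyte antigen) was at 0.521 FPKM or less in every CD43+ library. Fibroblast and smooth muscle markers, 6 in all, summed to 593 to 691 FPKM in CD31+CD34+, 495 to 655 FPKM in APLNR+, 163 to 188 FPKM in CD43+ and 92.2 to 129 FPKM in H1 libraries, with DCN listed at 0 in H1. In bulk RNA, fewer cells of a type and less RNA per cell cannot be told apart, and the part of such cells in the results was not tested. The relative sequencing depth, read from the smallest steps between values, ran from 0.553 to 1.27 of that of CD43+ replicate 3, with replicate 1 the shallowest library of every population.

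One property of the libraries touched several of these genes. Genes with GC-poor transcripts were lower, and GC-rich ones higher, in the CD31+CD34+ and CD43+ libraries. Among 14593 tested genes with an annotated transcript, the GC-poorest 20% (below 42.3% GC) lay 0.243 to 0.609 above their own mean over the 12 libraries (median, log2 scale) in all 6 H1 and APLNR+ libraries and 0.296 to 0.643 below it in all 6 of the others. The 9 Polycomb genes fell at both ends of that range. SUZ12 (38.1% GC), EED (38.5%) and BMI1 (40.1%) had GC-poor transcripts, EZH1 (48.7%) and JARID2 (51.0%) were near the median gene at 49.4%, EZH2 (44.6%) lay between these and the GC-poor genes, and CBX8 (59.6%), CBX7 (59.9%) and CBX2 (60.8%) were GC-rich. Changes are therefore also given after centring each library within 20 classes of GC content, a setting chosen after the data had been seen. The methods of the study mention more than a single sequencing provider and do not assign libraries to them, so provider and population cannot be told apart.

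SUZ12 and EED followed nearly the same course on the values as tested, and EZH2 and EZH1 did not. Once centred by GC content SUZ12 and EED differed, at 0.016 and -0.70 (log2 change from APLNR+ to CD31+CD34+ cells). The sequences around the start sites of these 4 PRC2 core subunits are shown for the courses as tested. Each runs from 250 bases before to 50 bases after a start site, 5′ to 3′ along the gene (RefSeq, GRCh38.p14), and the capitals mark matches to TTTNNCGC on either strand, a pattern of the type bound by E2F factors, which drive genes of the dividing cell.
EZH1, chr17:42744991-42745290, minus strand: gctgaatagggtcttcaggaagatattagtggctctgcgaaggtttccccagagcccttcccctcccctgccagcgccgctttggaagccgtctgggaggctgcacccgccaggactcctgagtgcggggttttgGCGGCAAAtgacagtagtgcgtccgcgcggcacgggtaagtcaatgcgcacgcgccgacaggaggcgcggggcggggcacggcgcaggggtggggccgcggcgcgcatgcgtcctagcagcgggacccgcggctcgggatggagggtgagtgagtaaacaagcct
EZH2, chr7:148884242-148884541, minus strand: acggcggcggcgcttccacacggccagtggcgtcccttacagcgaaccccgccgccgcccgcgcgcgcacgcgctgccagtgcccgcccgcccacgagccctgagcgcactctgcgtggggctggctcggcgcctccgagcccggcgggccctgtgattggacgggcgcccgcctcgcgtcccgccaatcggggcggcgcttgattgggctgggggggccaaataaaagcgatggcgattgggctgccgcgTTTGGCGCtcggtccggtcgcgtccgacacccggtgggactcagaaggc
SUZ12, chr17:31936757-31937056, plus strand: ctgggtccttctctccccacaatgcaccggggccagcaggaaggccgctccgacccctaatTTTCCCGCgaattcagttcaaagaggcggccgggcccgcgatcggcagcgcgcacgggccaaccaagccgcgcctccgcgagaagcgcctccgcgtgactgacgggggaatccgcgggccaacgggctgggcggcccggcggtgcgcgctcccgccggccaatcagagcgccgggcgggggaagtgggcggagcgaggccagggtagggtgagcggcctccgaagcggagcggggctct
EED, chr11:86244503-86244802, plus strand: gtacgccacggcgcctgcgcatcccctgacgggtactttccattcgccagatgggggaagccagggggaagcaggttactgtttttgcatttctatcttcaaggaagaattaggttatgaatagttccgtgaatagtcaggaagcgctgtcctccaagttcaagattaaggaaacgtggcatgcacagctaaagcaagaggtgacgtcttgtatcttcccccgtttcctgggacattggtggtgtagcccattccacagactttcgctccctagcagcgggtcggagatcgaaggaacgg
RefSeq start regions were found for 7 of the 9 genes, and those of CBX2 and CBX8 were not among them. EZH1, EZH2 and SUZ12 each held 1 match, whereas the windows of EED, JARID2, BMI1 and CBX7 held none, and 6.89% of all 35116 promoter windows in the table held at least 1. EZH2, JARID2 and BMI1 each had a further start region, also with no match. The 6.89% counts windows and not genes, and it takes in windows of any CG content. The EZH2 window shown had 46 CG pairs and that of SUZ12 had 40, more than 97.1% and 92.4% of all windows, while EED had 16, close to the median window with 14. A match describes these letters only, and no binding was measured.

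**Figure D1:**
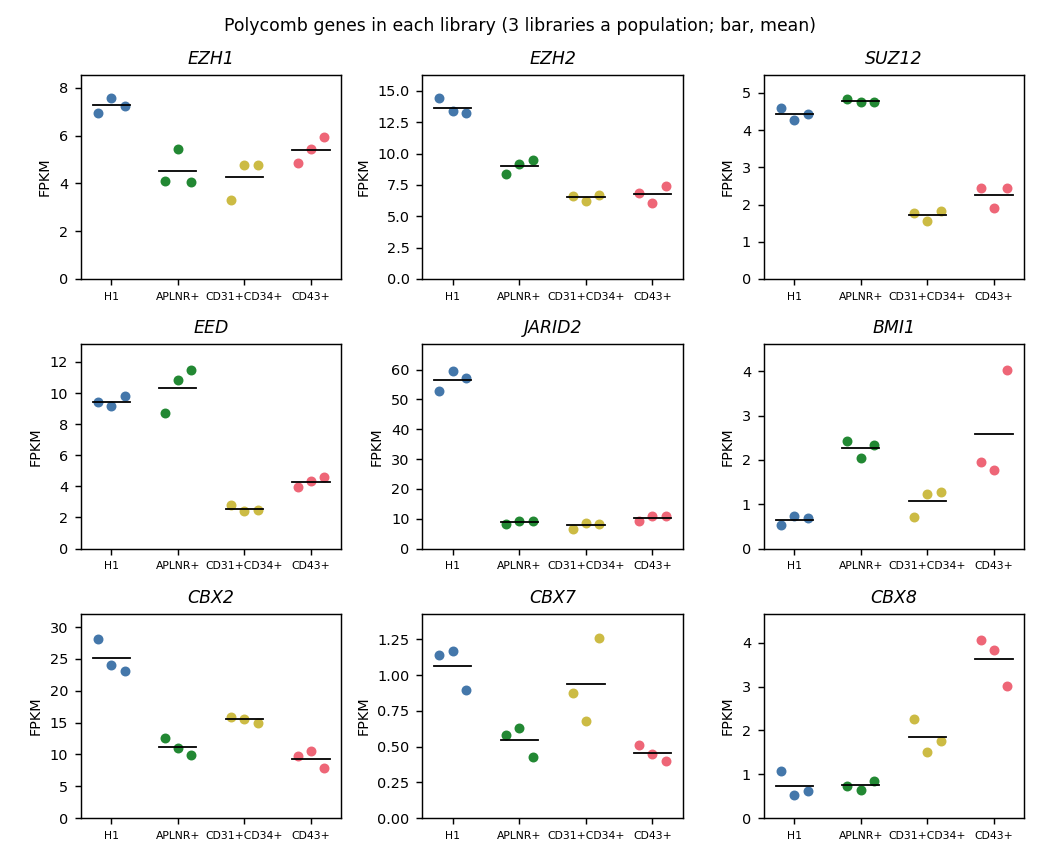
Level of each of the 9 Polycomb genes in FPKM (linear y axis from 0, a separate scale for each gene) in the 3 libraries of each population (x axis), with a bar at the mean of the 3. JARID2 drops from 52.8 to 59.7 FPKM in H1 to 8.27 to 9.36 FPKM in APLNR+ libraries, SUZ12 and EED drop at the next stage, and CBX8 is at its highest in the CD43+ libraries.

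The 9 genes did not move as one. Each change was tested with limma on log2(FPKM + 1) over all 14840 genes with Benjamini-Hochberg adjustment, and a gene is said to have risen or fallen only where the adjusted p was below 0.05 and the change at least 2-fold on that scale. From H1 to APLNR+ cells 2 of the 9 fell, JARID2 and CBX2, and none rose, where 15.9% of all tested genes were called in either direction and 7.62% fell. From APLNR+ to CD31+CD34+ cells SUZ12 and EED fell and none rose, against 29.6% called among all genes, 17.1% falling. From CD31+CD34+ to CD43+ cells none of the 9 was called, against 14.4% of all genes, although 7 passed the adjusted p alone, as did 53.6% of all genes. Between H1 and CD43+ cells BMI1 and CBX8 rose while JARID2 and CBX2 fell, with 37.1% called among all genes, 14.6% upwards and 22.5% downwards, and all 9 passed the adjusted p alone, as did 74.6% of all genes. The comparisons share libraries and are given side by side.

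The median log2 change of the 9 was -0.42 from H1 to APLNR+ cells, -0.18 at the next step, 0.29 from CD31+CD34+ to CD43+ cells and -0.74 from H1 to CD43+ cells, beside -0.12, -0.014, -0.0049 and -0.10 for all tested genes. After centring by GC content the 4 medians were -0.39, -0.15, 0.24 and -0.35. Of the 2 comparisons that skip a stage, CD31+CD34+ against H1 had JARID2 and EED lower (40.1% of all genes called), and CD43+ against APLNR+ had CBX8 higher and EED lower (33.6% called). Centred by GC content, EED was no longer called in CD31+CD34+ against H1 cells (-0.41), while CBX2 (-1.35) and BMI1 (1.37) were, and neither CBX8 (0.94) nor EED (-0.32) was called in CD43+ against APLNR+ cells.

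**Figure D2:**
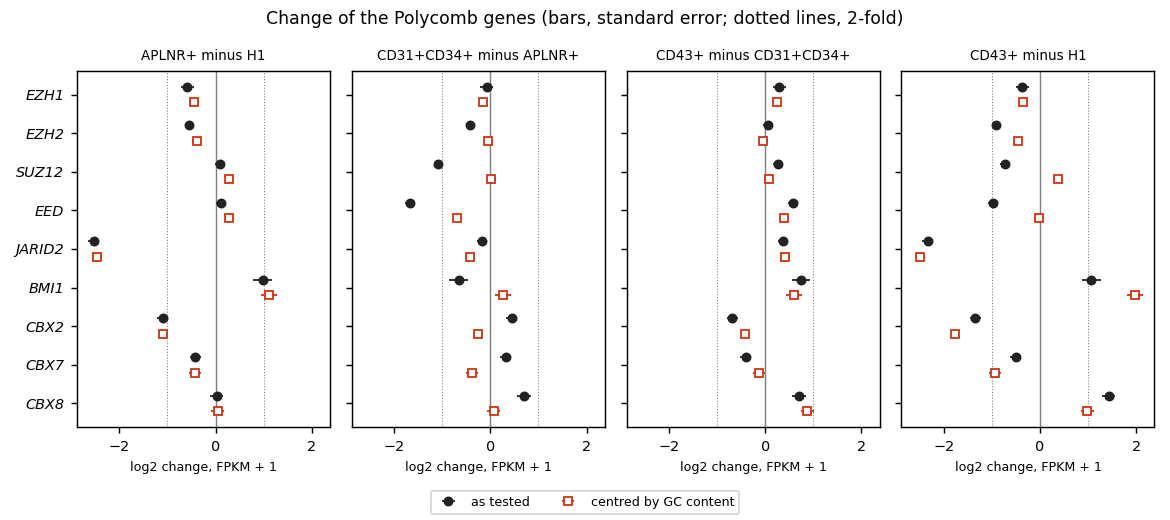
Log2 change of each gene on the log2(FPKM + 1) scale (x axis, bars show the standard error of the fit, dotted lines mark 2-fold) for the 3 consecutive steps and for CD43+ minus H1 cells. Filled circles are the values as tested and open squares the values centred by GC content: the first-step falls of JARID2 and CBX2 lie close together in both, whereas SUZ12 at the second step moves from -1.09 to 0.016 and EED from -1.67 to -0.70.

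EZH2, the main methyltransferase of PRC2 in dividing cells, was highest in H1 cells and lower in every later population. It was at 14.4, 13.4 and 13.2 FPKM in H1, 8.38, 9.18 and 9.50 FPKM in APLNR+, 6.65, 6.22 and 6.67 FPKM in CD31+CD34+ and 6.89, 6.08 and 7.40 FPKM in CD43+ libraries. The H1 libraries lay above all others and the APLNR+ libraries above both later populations, while CD31+CD34+ and CD43+ libraries overlapped. The log2 change was -0.55 ± 0.0912 at the first step (adjusted p = 2.67e-04 with limma) and -0.41 ± 0.0912 at the second (adjusted p = 0.00137), both short of 2-fold, and from H1 to CD43+ cells it was -0.92 ± 0.0912 (adjusted p = 1.60e-06). With centring by GC content the second step was -0.04 (adjusted p = 0.731) and the change from H1 to CD43+ cells -0.47 (adjusted p = 9.02e-04). A list of 12 proliferation genes had summed levels of 826 to 868 FPKM in H1, 585 to 656 in APLNR+, 486 to 544 in CD31+CD34+ and 474 to 535 FPKM in CD43+ libraries, and its part in the EZH2 result was not tested.

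EZH1, the methyltransferase that is typical of resting cells, varied less. It was at 6.96, 7.57 and 7.26 FPKM in H1, 4.11, 5.43 and 4.07 FPKM in APLNR+, 3.32, 4.76 and 4.76 FPKM in CD31+CD34+ and 4.86, 5.43 and 5.95 FPKM in CD43+ libraries. H1 stood above all other libraries, and the other 3 populations came in the order CD43+, APLNR+ and CD31+CD34+, in which neighbours were not separated by the test (adjusted p = 0.163 and 0.642 with limma). The log2 change from H1 to APLNR+ cells was -0.59 ± 0.135 (adjusted p = 0.00279) and that from H1 to CD43+ cells -0.37 ± 0.135 (adjusted p = 0.0268), both under 2-fold. EZH1 made up 34.7% ± 1.89 (SD, n = 3) of the summed FPKM of both enzymes in H1 cells, 33.4% ± 3.60 in APLNR+ cells, 39.4% ± 5.41 at the CD31+CD34+ stage and 44.4% ± 2.90 in CD43+ cells. The CD43+ libraries, at 41.4 to 47.2%, all lay above those of H1, at 32.6 to 36.1%, and EZH2 remained the more abundant of the pair in every library. The sum of both was 20.9 ± 0.446 FPKM in H1 and 10.8 ± 0.748 FPKM in CD31+CD34+ cells (SD, n = 3).

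The scaffold genes SUZ12 and EED were low in CD31+CD34+ cells, and neither passed the test between H1 and APLNR+ cells (log2 change 0.090 and 0.11, adjusted p = 0.44 and 0.405 with limma). That first step passed in both after GC centring, at 0.29 (adjusted p = 0.0236 for SUZ12 and 0.0149 for EED). EED, which binds methylated H3K27 and stimulates the enzyme, was at 9.40, 9.16 and 9.79 FPKM in H1, 8.69, 10.9 and 11.5 FPKM in APLNR+, 2.83, 2.38 and 2.45 FPKM in CD31+CD34+ and 3.98, 4.32 and 4.59 FPKM in CD43+ libraries. No library overlapped between APLNR+ and CD31+CD34+ cells, nor between CD31+CD34+ and CD43+ cells, whereas H1 and APLNR+ libraries overlapped. Mean FPKM was 4.05 times lower after the second step, with a log2 change of -1.67 ± 0.108 (adjusted p = 5.38e-08 with limma). The third step gave a log2 change of 0.58 ± 0.108 (adjusted p = 7.45e-04), and the change from APLNR+ to CD43+ cells was -1.09 ± 0.108 (adjusted p = 1.71e-06).

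SUZ12, the subunit that holds PRC2 together, was at 4.60, 4.27 and 4.42 FPKM in H1, 4.83, 4.74 and 4.76 FPKM in APLNR+, 1.78, 1.56 and 1.84 FPKM in CD31+CD34+ and 2.44, 1.90 and 2.45 FPKM in CD43+ libraries. The 3 APLNR+ libraries lay just above the H1 libraries, a log2 difference of 0.09 ± 0.0940, and all 6 lay above every later library. The second step gave -1.09 ± 0.0940 (adjusted p = 6.52e-07 with limma) and the third 0.26 ± 0.0940 (adjusted p = 0.0352). The SUZ12 row is separate from that of SUZ12P1, a pseudogene on the same chromosome, which stood at 9.70 ± 0.560 FPKM in H1, 9.74 ± 0.724 in APLNR+, 4.64 ± 0.145 at the CD31+CD34+ stage and 7.21 ± 0.946 FPKM in CD43+ cells (SD, n = 3). Of the 50-base stretches of SUZ12 transcripts, 6.57% also occurred in SUZ12P1, so part of the reads could be assigned to either, and the pseudogene row was also lower after the second step (log2 change -0.93 ± 0.10).

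The size of both second-step falls depended on how GC content was handled. Across all genes the change from APLNR+ to CD31+CD34+ cells rose with transcript GC content (Spearman's rho 0.611 across 14593 genes, a description, since genes are not independent replicates), with median log2 changes of -0.94, -0.45, 0.08, 0.46 and 0.65 over 5 equal classes from the GC-poorest to the GC-richest. Only 4.06% of these genes had a lower GC content than SUZ12, and 5.17% a lower one than EED. After GC centring the second-step change of EED was -0.70 (adjusted p = 3.04e-05 with limma), lower still but short of 2-fold, and that of SUZ12 was 0.016 (adjusted p = 0.898). From H1 to CD43+ cells the centred values were -0.028 for EED (adjusted p = 0.792) and 0.37 for SUZ12 (adjusted p = 0.00454), against -0.98 ± 0.108 and -0.74 ± 0.0940 as tested.

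**Figure D3:**
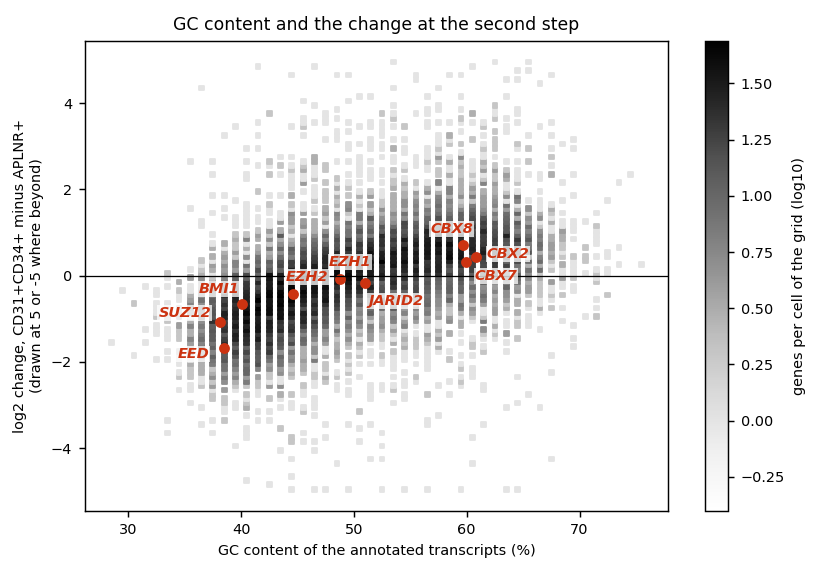
Log2 change from APLNR+ to CD31+CD34+ cells on the log2(FPKM + 1) scale (y axis) against the GC content of annotated transcripts in percent (x axis). The grey grid counts 14593 tested genes (log10 scale) and rises from lower left to upper right. The red points are the 9 Polycomb genes, with SUZ12, EED and BMI1 at the GC-poor end and CBX2, CBX7 and CBX8 at the GC-rich end.

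JARID2, an accessory subunit that helps PRC2 to find its targets in embryonic stem cells, showed the largest change of the 9. It was at 52.8, 59.7 and 57.3 FPKM in H1, 8.27, 9.15 and 9.36 FPKM in APLNR+, 6.62, 8.62 and 8.15 FPKM in CD31+CD34+ and 9.36, 10.9 and 11.0 FPKM in CD43+ libraries. Every H1 library was far above every other library, and CD31+CD34+ libraries overlapped with those of APLNR+ cells. Mean FPKM was 6.34 times lower in APLNR+ than in H1 cells, a log2 change of -2.54 ± 0.107 (adjusted p = 1.54e-09 with limma). The second step did not pass (log2 change -0.18 ± 0.107, adjusted p = 0.147), and the third was 0.38 ± 0.107 (adjusted p = 0.0103), under 2-fold. From H1 to CD43+ cells the change was -2.34 ± 0.107 (adjusted p = 1.29e-09). On GC-centred values the first step was -2.47, the second passed at -0.43 (adjusted p = 1.33e-04), the third was 0.41 and the change from H1 to CD43+ cells -2.49, and no 50-base stretch of JARID2 transcripts occurred in another gene.

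The proportions of the accessory proteins changed along the course. JARID2 made up 43.1% ± 1.38 (SD, n = 3) of the summed FPKM of JARID2, AEBP2, PHF1, MTF2 and PHF19 in H1, 14.2% ± 0.313 in APLNR+, 14.2% ± 1.42 at the CD31+CD34+ stage and 20.3% ± 0.309 in CD43+ cells. MTF2, a Polycomb-like protein of stem cells, held the largest share in APLNR+ cells at 57.0% ± 2.38, and 22.9% ± 3.40 in CD31+CD34+ cells. Its paralogue PHF19 went from 4.72% ± 0.127 in APLNR+ to 34.9% ± 3.87 in CD31+CD34+ cells. PHF19 rose at that step from 2.88, 3.00 and 3.00 FPKM to 16.5, 22.2 and 18.6 FPKM (log2 change 2.33, adjusted p = 3.52e-08 with limma), and by 1.72 when centred by GC content, so the groups did not overlap and the rise passed both ways. MTF2 fell from 32.1, 37.8 and 37.6 FPKM to 12.4, 10.9 and 14.1 FPKM (log2 change -1.46, adjusted p = 1.46e-07), with -0.54 centred (adjusted p = 1.35e-04), short of 2-fold. EPOP, a PRC2 partner of stem cells, was listed at 0 in every library, and CXorf67 (EZHIP, an inhibitor of PRC2) at no more than 0.0405 FPKM. A listed 0 does not show absence in this table, since the housekeeping translation factor EEF1A1 had a 0 in 6 of the 12 libraries and 1839 to 4616 FPKM in the rest.

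BMI1, the PCGF subunit of canonical PRC1, was lowest in H1 cells. It was at 0.527, 0.730 and 0.701 FPKM in H1, 2.43, 2.03 and 2.34 FPKM in APLNR+, 0.719, 1.24 and 1.29 FPKM in CD31+CD34+ and 1.96, 1.78 and 4.02 FPKM in CD43+ libraries. APLNR+ and CD43+ libraries all lay above those of H1 and CD31+CD34+ cells, and CD43+ replicate 3 stood at 4.02 FPKM, away from the other two. Mean FPKM was 3.97 times higher in CD43+ than in H1 cells, with a log2 change of 1.07 ± 0.195 (adjusted p = 3.04e-04 with limma). Without CD43+ replicate 3 the change was 0.80, past the adjusted p but short of 2-fold. The first step was 0.98 ± 0.195 (adjusted p = 9.91e-04), just under 2-fold on this scale, the second -0.66 ± 0.195 (adjusted p = 0.00893) and the third 0.74 ± 0.195 (adjusted p = 0.00657). Centred by GC content the first step was 1.11 (adjusted p = 1.45e-04), the second 0.26 (adjusted p = 0.198) and the change from H1 to CD43+ cells 1.97 (adjusted p = 6.19e-07).

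The BMI1 row cannot be read alone, because a readthrough transcript joins BMI1 to its upstream neighbour COMMD3, a gene linked to copper metabolism and NF-kappa-B regulation. In GENCODE 29 (GRCh38) COMMD3 lies on the plus strand at chr10:22315974-22320308, BMI1 at chr10:22321211-22331484 and the joined gene COMMD3-BMI1 at chr10:22316388-22329542. Of the 50-base stretches of BMI1 transcripts 21.3% also occurred in COMMD3-BMI1, and 91.1% of those of COMMD3-BMI1 occurred in BMI1 or COMMD3. The COMMD3-BMI1 row was at 0.922, 0.976 and 1.27 FPKM in H1, 1.94, 2.87 and 3.21 FPKM in APLNR+, 4.99, 6.50 and 6.11 FPKM in CD31+CD34+ and 17.3, 7.25 and 16.0 FPKM in CD43+ libraries. It rose by 2.74 ± 0.254 on the log2 scale from H1 to CD43+ cells (adjusted p = 8.31e-07 with limma), and COMMD3 by 3.38 ± 0.211 (adjusted p = 2.21e-08). Unlike BMI1, the joined row was higher in CD31+CD34+ than in APLNR+ libraries, without overlap. BMI1 and COMMD3-BMI1 together came to 1.71 ± 0.260 FPKM in H1, 4.94 ± 0.591 in APLNR+, 6.95 ± 1.09 at the CD31+CD34+ stage and 16.1 ± 6.12 FPKM in CD43+ cells (SD, n = 3), so the CD31+CD34+ dip of the BMI1 row was absent from the sum. How the authors' counting split reads between these rows is not given in the sources used here.

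PCGF2, the other PCGF protein of canonical PRC1, was at 1.25 ± 0.381 FPKM in H1 and 0.748 ± 0.130 FPKM in CD43+ cells (SD, n = 3), a log2 change of -0.35 (adjusted p = 0.0409 with limma). The BMI1 row made up 35.0% ± 4.04 of the sum of both in H1, 65.5% ± 6.16 in APLNR+, 38.7% ± 6.39 at the CD31+CD34+ stage and 75.5% ± 9.81 in CD43+ cells (SD, n = 3). With COMMD3-BMI1 added, the shares were 58.5% ± 4.59, 80.3% ± 4.60, 80.4% ± 2.14 and 94.8% ± 3.30 in the same order. BMI1 was GC-poor (40.1%) and PCGF2 GC-rich (58%), and PCGF2 was at 2.09 FPKM or less in every library. Shares of summed FPKM, here and for the other subunit classes, were not centred by GC content.

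Among the chromobox readers CBX2 fell and CBX8 rose. CBX2, a reader that also compacts chromatin, was at 28.2, 24.1 and 23.1 FPKM in H1, 12.6, 11.0 and 9.96 FPKM in APLNR+, 15.9, 15.6 and 15.0 FPKM in CD31+CD34+ and 9.71, 10.5 and 7.79 FPKM in CD43+ libraries. H1 libraries stood above all others and CD31+CD34+ libraries above those of APLNR+ and CD43+ cells, which overlapped. The first step was -1.10 ± 0.120 on the log2 scale (adjusted p = 8.69e-06 with limma), the second 0.44 ± 0.120 (adjusted p = 0.00564) and the third -0.68 ± 0.120 (adjusted p = 4.70e-04), and from H1 to CD43+ cells the change was -1.34 ± 0.120 (adjusted p = 5.99e-07). Centred by GC content the first step was -1.10 and the change from H1 to CD43+ cells -1.77, while the second step turned to -0.25 (adjusted p = 0.0129).

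CBX8, a reader found with BMI1 in differentiated cells, was at 1.06, 0.529 and 0.608 FPKM in H1, 0.737, 0.649 and 0.849 FPKM in APLNR+, 2.26, 1.51 and 1.77 FPKM in CD31+CD34+ and 4.06, 3.84 and 3.01 FPKM in CD43+ libraries. H1 and APLNR+ libraries overlapped, and each later population stood above the one before it. Mean FPKM was 4.96 times higher in CD43+ than in H1 cells, a log2 change of 1.43 ± 0.140 (adjusted p = 1.40e-06 with limma). It was reached in a pair of like steps, 0.70 ± 0.140 from APLNR+ to CD31+CD34+ cells (adjusted p = 6.91e-04) and 0.71 ± 0.140 from there to CD43+ cells (adjusted p = 0.00111). Centred by GC content the second step was 0.07 (adjusted p = 0.676), the third 0.87 (adjusted p = 2.11e-04) and the change from H1 to CD43+ cells 0.99 (adjusted p = 4.31e-05), just short of 2-fold. CBX2 and CBX8 are neighbours on chromosome 17, at chr17:79778132-79787983 on the plus strand and chr17:79792132-79801683 on the minus strand (GENCODE 29, GRCh38).

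CBX7, the reader most tied to self-renewal in mouse embryonic stem cells and adult blood stem cells, was low throughout. It was at 1.14, 1.17 and 0.895 FPKM in H1, 0.583, 0.627 and 0.429 FPKM in APLNR+, 0.877, 0.679 and 1.26 FPKM in CD31+CD34+ and 0.511, 0.445 and 0.399 FPKM in CD43+ libraries. H1 and CD31+CD34+ libraries overlapped, as did APLNR+ and CD43+ libraries, and the former pair stood above the latter. The log2 changes were -0.42 ± 0.111 (adjusted p = 0.00667 with limma), 0.32 ± 0.111 (adjusted p = 0.022) and -0.41 ± 0.111 (adjusted p = 0.00858) at the 3 steps, none of them 2-fold. When centred by GC content the second turned to -0.37 (adjusted p = 0.0214) and the third did not pass, at -0.14 (adjusted p = 0.375), while the change from H1 to CD43+ cells went from -0.51 to -0.93.

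**Figure D4:**
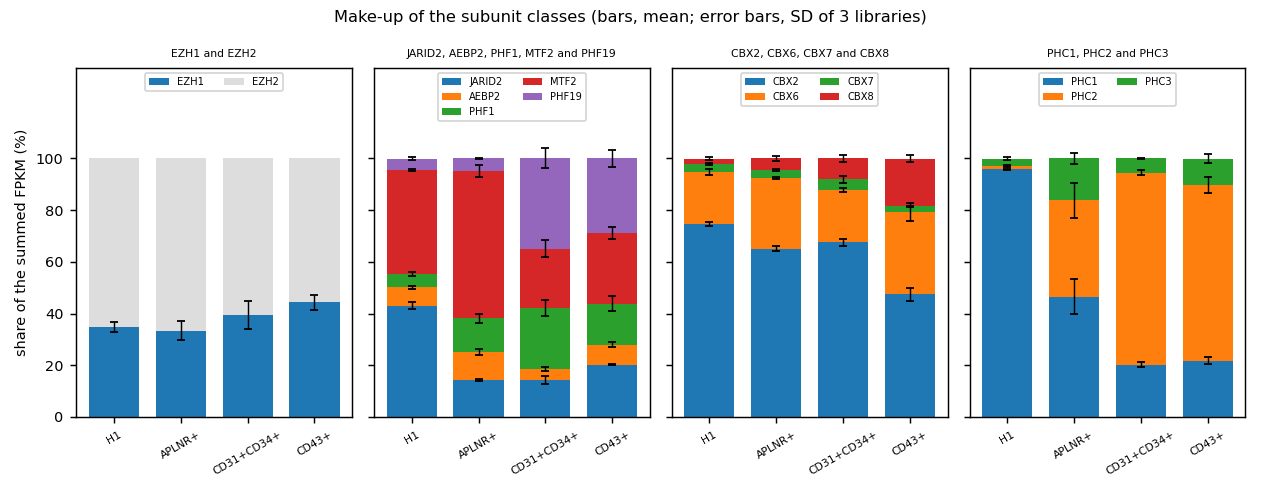
Share of each gene in the summed FPKM of its subunit class (y axis, percent, bars from 0 stacked to 100, mean of 3 libraries with the SD as error bar at the top of each segment) in the 4 populations (x axis), for the PRC2 enzymes, PRC2 accessory proteins, PRC1 chromobox readers and PRC1 PHC proteins. The JARID2 share drops after H1, the PHF19 share grows in CD31+CD34+ cells, the CBX2 share is lowest in CD43+ cells, and PHC1 gives way to PHC2.

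As a class, the chromobox readers were dominated by CBX2 in H1 cells and less so later. CBX2 made up 74.8% ± 0.790 (SD, n = 3) of the summed FPKM of CBX2, CBX6, CBX7 and CBX8 in H1, 65.1% ± 0.898 in APLNR+, 67.5% ± 1.31 at the CD31+CD34+ stage and 47.4% ± 2.50 in CD43+ cells. CBX8 took 2.15% ± 0.633, 4.39% ± 0.943, 8.02% ± 1.41 and 18.5% ± 1.45 in the same order, and CBX6 19.9% ± 1.22 in H1 and 31.8% ± 3.51 in CD43+ cells. CBX7 never exceeded 5.60% in a library. The sum of these 4 readers was 33.6 ± 3.28 FPKM in H1, 17.2 ± 1.83 in APLNR+, 23.0 ± 0.742 at the CD31+CD34+ stage and 19.6 ± 1.92 FPKM in CD43+ cells.

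An exchange was also seen in the PHC proteins, which let PRC1 complexes join into chains. PHC1 was at 121, 153 and 146 FPKM in H1 against 11.4, 15.9 and 16.3 FPKM in APLNR+ libraries, a log2 change of -3.19 (adjusted p = 4.94e-09 with limma). PHC2 was at 1.99, 1.95 and 1.35 FPKM in H1, 13.2, 11.5 and 9.99 FPKM in APLNR+, 56.4, 61.3 and 61.6 FPKM in CD31+CD34+ and 29.9, 38.0 and 33.7 FPKM in CD43+ libraries, and rose at the first step by 2.19 (adjusted p = 3.07e-08) and at the second by 2.28 (adjusted p = 1.63e-08). PHC1 made up 95.8% ± 0.177 of the 3 genes in H1 and 20.3% ± 0.847 in CD31+CD34+ cells, where PHC2 made up 74.2% ± 0.920 (SD, n = 3). With centring by GC content the first step of PHC1 was -3.15 and the first and second steps of PHC2 were 2.21 and 1.65.

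The other genes of the pathway are given by lists. Their counts, and those of the lists further below, stand beside 15.9%, 29.6% and 14.4% of all tested genes called at the 3 steps. Between H1 and CD43+ cells that share was 37.1%. Of the PRC2 core list of 6, which adds the histone chaperones RBBP4 and RBBP7 to 4 of the genes above, RBBP7 fell at the first step (-1.06, but short of 2-fold at -0.96 to -0.90 with 3 other scalings and centring by GC content), SUZ12 and EED at the second, and none at the third or between H1 and CD43+ cells, although all 6 were lower in CD43+ cells by the adjusted p alone, as were 41.5% of all genes. With GC centring 3 of the 6 were lower and 1, SUZ12, was higher by the adjusted p (0.37), while EED (-0.028) and RBBP4 (-0.10) did not pass. Of the accessory list of 7, 5 were tested, and JARID2 fell at the first step, PHF19 rose and 2 fell at the second (the larger being MTF2 at -1.46), none was called at the third, and between H1 and CD43+ cells PHF19 rose (1.20) and 3 fell. On centred values JARID2 alone kept its call between H1 and CD43+ cells, with PHF19 at 0.80, MTF2 at -0.95 and AEBP2 at -0.12. Of 13 canonical PRC1 genes, 1 rose and 2 fell at the first step and 1 rose (PHC2) and 1 fell at the second, RNF2, the main E3 ligase of PRC1, by -2.21, and by -1.29 when centred by GC content. None of the 13 was called at the third step, and 3 rose and 4 fell between H1 and CD43+ cells, from PHC2 at 3.66 to PHC1 at -3.57. Median changes of these 3 lists between H1 and CD43+ cells were -0.83, -1.08 and -0.088, beside -0.10 for all tested genes, and -0.22, -0.20 and -0.14 when centred by GC content, where 3 of the 13 canonical PRC1 genes rose and 3 fell. On centred values 29.9% of all genes were called in that comparison.

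Variant PRC1 complexes act without a chromobox reader, and their counts stand beside the same shares of all tested genes. Of 11 listed genes 9 were tested, and YAF2, a RYBP-like adaptor, rose by 3.54 at the first step, from 1.48, 0.913 and 0.782 FPKM to 17.7, 27.7 and 23.6 FPKM. At the second step BCORL1 rose (1.60, or 0.98 centred by GC content) and PCGF6 fell (-1.46, or -0.92 centred), and at the third AUTS2 fell (-1.05). The AUTS2 call did not hold when centred by GC content (-0.97), with median-ratio scaling (-0.99), with quantile normalization (-0.98), or without CD31+CD34+ replicate 2 (-0.90) or 3 (-0.95). Between H1 and CD43+ cells 3 rose, led by YAF2 (2.64), and 2 fell, led by KDM2B (-1.21), which brings a variant PRC1 to CpG islands. Over that span 2 of the 9 rose and 1 fell after GC centring, where 29.9% of all genes were called.

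Enzymes that oppose Polycomb are given by lists too. Beside their counts, 15.9%, 29.6% and 14.4% of all tested genes were called at the 3 steps, and 37.1% between H1 and CD43+ cells. Both H3K27 demethylases were tested, and KDM6B rose at the first step (1.40) and the second (1.31), whereas KDM6A fell at the second (-1.75). Between H1 and CD43+ cells KDM6B rose by 2.62 and KDM6A fell (-1.14), a fall short of 2-fold with median-ratio scaling (-0.98), with quantile normalization, and centred by GC content (-0.46). GC-centred, the second step was 0.59 for KDM6B and -1.12 for KDM6A. In the H2A deubiquitinase list of 4, ASXL1 rose at the first step (1.43) and ASXL3 at the second (1.60), none was called at the third, and 2 rose and none fell between H1 and CD43+ cells, led by ASXL1 (1.93). Of 12 Trithorax and COMPASS genes, which activate Polycomb targets, none was called at the first step or the third, 2 fell at the second, ASH1L the more (-1.21, or -0.84 centred by GC content, where neither was called), and between H1 and CD43+ cells ASH2L rose (1.41) and DPY30 fell (-1.69).

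Genes known to be held by Polycomb in stem cells were nearly silent in H1 cells and higher later. The list of 25 lineage regulators and genes of the CDKN2A locus summed to 0.774 to 1.21 FPKM in H1, 133 to 144 in APLNR+, 168 to 185 in CD31+CD34+ and 103 to 134 FPKM in CD43+ libraries. Only 10 of the 25 passed the filter on low values, and a gene silent in H1 could pass it only through a later population, so their counts support nothing. Of the 10, 7 rose at the first step (HAND1 the most, 5.43), 5 rose (GATA2, 3.16) and 1 fell (GATA6, -1.32) at the second, 6 fell at the third (SOX17, -3.38), and 9 rose between H1 and CD43+ cells (GATA2, 6.41). Centred by GC content, 7 of the 10 rose at the first step, and 3 rose and 3 fell at the second. At the third 1 rose and 6 fell, and 6 rose between H1 and CD43+ cells. CDKN2A, a cell cycle inhibitor silenced by BMI1 and the CBX proteins in many cells, was at 0.0331, 0 and 0.0925 FPKM in H1 against 1.15, 1.88 and 1.61 FPKM in CD43+ libraries, low in all. Of the 12 proliferation genes, 2 fell at the first step (MCM5, -1.31), 1 rose (MCM2, 1.04) and 3 fell (CDK1, -2.51) at the second, 1 rose (PCNA, 1.18) and 1 fell (MKI67, -1.08) at the third, and none rose and 4 fell between H1 and CD43+ cells (TOP2A, -2.87). After GC centring 1, 2, 1 and 2 of the 12 fell in these comparisons, and MCM2 at the second step was 0.43. Leaving out single libraries gave 2 to 6 calls among the 12 at the second step, where the fit to all libraries called 29.6% of all genes.

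The marker lists, which include the antigens that define the later populations, were called as follows. All 6 pluripotency markers fell at the first step, 2 at the second and 3 at the third, with none rising (SOX2 -5.11, then POU5F1 -2.06 and -2.66), and all 6 fell between H1 and CD43+ cells (POU5F1, -6.22). All 6 mesoderm markers rose at the first step (APLNR, 7.98), 5 fell at the second (MIXL1, -5.07), 3 fell at the third (APLNR, -4.03) and 1 rose between H1 and CD43+ cells (APLNR, 4.01). Of 6 endothelial markers 1 rose at the first step (KDR, 1.22), all 6 at the second (CDH5, 6.52), 4 fell at the third (CDH5, -1.49) and all 6 were called higher in CD43+ than in H1 cells (PECAM1, 6.42). Of 5 tested blood markers 1 fell at the first step (ITGA2B, -1.26), 3 rose at the second (SPN, which encodes CD43, 1.98), and all 5 rose at the third and between H1 and CD43+ cells (HBE1, 8.02 and 8.89). Of 5 tested fibroblast and smooth muscle markers 2 rose at the first step (TAGLN, 2.60), 4 rose at the second (COL3A1, 4.07), 1 rose (ACTA2, 1.32) and 3 fell (TAGLN, -4.04) at the third, and 4 rose (COL3A1, 5.32) and 1 fell (TAGLN, -2.20) between H1 and CD43+ cells.

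The 9 genes followed different courses. Over the 12 libraries, log2(FPKM + 1) of SUZ12 and EED had a Pearson correlation of 0.975. That of JARID2 and EZH2 was 0.887, and that of BMI1 and CBX2 was -0.917. These values describe 4 clusters of 3 libraries sharing one line, and neither they nor those below were centred by GC content. SUZ12 and EED had a like GC content, and BMI1 (40.1%) and CBX2 (60.8%) lay towards opposite ends of the range. The second-step changes of BMI1 and CBX2 (-0.66 and 0.44) turned sign after GC centring (0.26 and -0.25). The genes outside the group that were most like each member, among 8545 or 8546 with a mean of at least 5 FPKM, were TMX1 for EZH2 (0.991), DNAJC21 for SUZ12 (0.989), RWDD1 for EED (0.995), SNHG4 for JARID2 (0.993), FAM46B for CBX2 (0.987) and ACAA1 for CBX8 (0.978). The values for EZH1 (TMEM258, 0.963), BMI1 (FTH1, 0.931) and CBX7 (IL4R, 0.912) were lower. The next most like were POLR3G (0.986) and ZNF616 (0.985) for EZH2, STRN3 (0.989) and CLK1 (0.987) for SUZ12, APIP (0.993) and RSRC1 (0.993) for EED, and PEBP1 (0.992) and EIF2AK4 (0.989) for JARID2. For the other members they were CLDN7 (0.975) and MFGE8 (0.970) for CBX2, MICALL2 (0.977) and NAA38 (0.975) for CBX8, GNPTAB (0.960) and IFT52 (0.954) for EZH1, RP9 (0.920) and MLLT3 (0.910) for BMI1, and DUSP6 (0.887) and PCDH1 (0.867) for CBX7.

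The order of the 4 populations on the values as tested differed between genes. JARID2 ran from H1 through CD43+ and APLNR+ to CD31+CD34+ cells, and only the gap below H1 passed the test (adjusted p = 1.29e-09 with limma, and 0.112 and 0.147 for the gaps after it). SUZ12 and EED both ran from APLNR+ through H1 and CD43+ to CD31+CD34+ cells, and H1 and APLNR+ cells were not separated in either (adjusted p = 0.44 and 0.405). CBX2 and CBX7 both ran from H1 through CD31+CD34+ and APLNR+ to CD43+ cells, where the last pair was not separated (adjusted p = 0.0856 and 0.481). The top pair of CBX7, H1 and CD31+CD34+ cells, was not separated either (adjusted p = 0.419 with limma). On the values as tested BMI1 was in the order CD43+, APLNR+, CD31+CD34+ and H1, with neither the top pair (adjusted p = 0.704) nor the bottom pair (adjusted p = 0.147) separated, and CBX8 in the order CD43+, CD31+CD34+, APLNR+ and H1, with the last pair not separated (adjusted p = 0.913). Several of these pairs did separate on values centred by GC content: H1 and APLNR+ cells in SUZ12 and EED (above), the last pair of CBX2 (-0.66, adjusted p = 8.61e-06) and of CBX7 (-0.51, adjusted p = 0.00322), both pairs of BMI1 (0.86, adjusted p = 7.14e-04, and 1.37, adjusted p = 1.56e-05), and the last pair of JARID2 (-0.43, adjusted p = 1.33e-04). Centring also changed some of the orders. SUZ12 was then higher than in H1 cells in CD31+CD34+ (0.30) and CD43+ cells (0.37) too, so H1 became its lowest population. CD31+CD34+ and APLNR+ cells changed places in CBX2 (-0.25), CBX7 (-0.37) and BMI1 (0.26, not past the adjusted p). CD43+ and APLNR+ cells did so in JARID2 (-0.017, not past it). An exact permutation test of 3 against 3 libraries, two-sided, cannot go below 0.1, a value that was reached wherever the libraries did not overlap. That was so for 7, 7, 8 and 9 of the 9 genes at the 3 steps and between H1 and CD43+ cells, beside 66.0%, 75.7%, 58.0% and 76.3% of all tested genes.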

How the data were processed

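Total RNA of 12 samples (4 populations of the H1 line, 3 each) was sequenced by the authors after TruSeq library preparation, and the deposited table gives FPKM per gene symbol. The submitters' processing notes name BWA, Bowtie, RSEM and the build hg19 without their roles or versions. Depth in reads is not given. Where a symbol stood on several of the 58365 gene lines (345 symbols), its highest line by mean FPKM was used. FPKM values were transformed as log2(FPKM + 1) and genes with at least 1 FPKM in 3 or more libraries were fitted with limma 3.58.1 (R 4.3.3, empirical Bayes with a trend), with 4 groups in 1 model and Benjamini-Hochberg adjustment over 14840 genes for each of 6 comparisons. The call needed an adjusted p below 0.05 and a 2-fold change. Tables and correlations were made with Python 3.11.15 (pandas 2.3.3, scipy 1.17.1), and the fit was checked on simulated data. Shared 50-base stretches, gene positions and transcript GC content came from GENCODE 29 (GRCh38), a different build from that of the files, and no coordinates were converted. All 9 genes are described. The genes named from each list were those called with the largest rise and the largest fall. The second-step values of BCORL1, PCGF6, KDM6B and others centred by GC content, the PHC shares and CXorf67, PTPRC, PCGF2 and CBX6 were added after their values had been seen. The 9 genes and the lists were chosen with earlier results of these data known, and 1 listed gene is not reported here. Alternatives were another pseudocount, filters, scalings, thresholds, a replicate block, fits without single libraries and centring by GC content.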

Additional observations from a re-analysis of the deposited data

How the results depend on the processing

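Counts of the 9 genes called depended most on the threshold. With the adjusted p alone they were 6 from H1 to APLNR+ cells, 7 from APLNR+ to CD31+CD34+, 7 from CD31+CD34+ to CD43+, 9 from H1 to CD43+, 7 from H1 to CD31+CD34+ and 4 from APLNR+ to CD43+ cells, where 57.9%, 73.8%, 53.6%, 74.6%, 77.3% and 74.1% of all genes passed. With a 1.5-fold minimum the first 5 of these were 4, 4, 3, 7 and 7, beside 35.2%, 53.6%, 32.7%, 58.1% and 60.9% of all genes. A pseudocount of 0.1 gave 4 at the second step, 1 at the third, 7 from H1 to CD43+ and 5 from H1 to CD31+CD34+ cells, beside 41.1%, 24.3%, 47.2% and 50.9%. A filter at a mean of 5 FPKM, which leaves out SUZ12, BMI1, CBX7 and CBX8, gave 1 at the second step, 2 from H1 to CD43+ and 1 from APLNR+ to CD43+ cells, beside 34.9%, 38.4% and 35.7%. Quantile normalization gave 1 at the second step, where SUZ12 was at -0.94, and 1 from APLNR+ to CD43+ cells, where EED was at -0.95, beside 29.3% and 32.5%. Centring by GC content, chosen after the data had been seen, gave 0 in both of these comparisons, with 17.9% and 26.5% of all genes called and 4 and 5 of the 9 past the adjusted p.

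Leaving out each library in turn gave 2 to 3 calls at the first step, 2 at the second, 0 at the third, 4 to 5 from H1 to CD43+, 2 to 3 from H1 to CD31+CD34+ and 2 from APLNR+ to CD43+ cells. With all libraries 15.9%, 29.6%, 14.4%, 37.1%, 40.1% and 33.6% of all genes were called, in the same order. The shares without single libraries are not given here, so whether these counts move with the whole set of genes is not shown. Changes near 0 turned sign in some settings. CBX8 at the first step was -0.020 after quantile normalization and -0.063 to 0.15 without single libraries. EZH1 at the second step was 0.10 after quantile normalization, 0.013 with replicates 2 and 3 alone, and -0.14 to 0.066 without single libraries. EZH2 at the third step was -0.0071 to 0.12 without single libraries and BMI1 from APLNR+ to CD43+ cells -0.18 to 0.24, the lower value of both without CD43+ replicate 3, and CBX7 was 0.024 from H1 to CD31+CD34+ and 0.13 from APLNR+ to CD43+ cells after quantile normalization. Centring by GC content turned SUZ12 at the second step (0.016), from H1 to CD43+ (0.37), from H1 to CD31+CD34+ (0.30) and from APLNR+ to CD43+ cells (0.086), BMI1 (0.26), CBX2 (-0.25) and CBX7 (-0.37) at the second step, EZH2 at the third (-0.038) and JARID2 from APLNR+ to CD43+ cells (-0.017). The first-step falls of JARID2 and CBX2 were called in every setting that tested them. The median change of all genes from H1 to CD43+ cells moved from -0.10 to 0.015 with median-ratio scaling and to 0.016 with quantile normalization.

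The labels do not say what a replicate number marks, and not every same-numbered pair of libraries deviated together, so the numbers were not taken to pair the samples. Deviations correlated at -0.021 to 0.43 over 18 same-numbered pairs (12 above 0.1) and at -0.40 to 0.29 over 36 differently numbered pairs (7 above 0.1). All 6 pairs of replicate 1 libraries were above 0.1, and the same number gave the best correlation in 23 of 36 choices of a library and another population. With the replicate block, 2, 2, 0, 4, 2 and 2 of the 9 genes were called in the 6 comparisons, as without it. Without the block 15.9%, 29.6%, 14.4%, 37.1%, 40.1% and 33.6% of all genes were called, and the shares with it are not given here. Depth is known only relative to other libraries, so levels near or below 1 FPKM are the least certain, which takes in CBX7 throughout, CBX8 in H1 and APLNR+ cells and BMI1 in H1 and CD31+CD34+ cells.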
